A study of Mus musculus with 2 samples.

Results

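A class of mesenchymal cells of the mouse cochlea is described, carrying Coch together with Kcnk3, Nov and Sox11. Its members were chosen by a count of genes seen per cell. A member held at least 5 Coch UMIs (unique molecular identifiers, 1 per captured transcript), at least 3 of the 5 genes Kcnk3, Nov, Sox11, Epha3 and Col23a1, and more of these genes than of either of 2 other panels. The other panels were Hal, Tnc, Hpgds, Npy and Cxcl13, and Lox, Rarres1, Foxc2, Gper1 and Col13a1. Of 1975 cells that passed the filters on genes and mitochondrial UMIs, 151 were members.

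All cells came from cochleae of untreated wild-type C57BL/6 mice at 20 days of age, after the onset of hearing. The labels give 5 to 8 animals, trypsin digestion and Illumina HiSeq sequencing of single-cell libraries. There were 2 libraries of 1 group, with no statement that they came from separate pools of animals. Library 1 gave 1331 cells with a median of 10601 UMIs and library 2 gave 644 cells with a median of 6115.5 UMIs. The libraries shared 2 cell barcodes, neither of which was a member.

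The connective tissue cells of the cochlea fill the lateral wall, the spiral limbus and the lining of the fluid spaces. They secrete the matrix that anchors the sensory epithelium, return potassium towards the endolymph and are known for deafness genes such as Coch and Pou3f4. Coch encodes cochlin, an abundant secreted protein of this matrix. Kcnk3 encodes TASK-1, an acid-sensitive leak potassium channel. Nov, also named Ccn3, encodes a secreted matricellular protein of the CCN family. Sox11 encodes a developmental transcription factor of the SOXC group, Epha3 a receptor tyrosine kinase for ephrins, and Col23a1 a transmembrane collagen. On the mm10 build, the GENCODE annotation places Kcnk3 at chr5:30588170-30625271, Nov at chr15:54745702-54754039, Sox11 at chr12:27334264-27342574, Epha3 at chr16:63543534-63864175, Col23a1 at chr11:51289920-51583918 and Coch at chr12:51593341-51605771.

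Members were set against 3 other classes of the same libraries. Hal panel cells were chosen by the mirror image of the rule on the Hal panel, and Lox panel cells by the mirror image on the Lox panel. The fourth class, Coch-low fibroblasts, had at most 4 Coch UMIs, at least 4 of Ccl11, Dcn, Apod, Col3a1 and Pdgfra, and more of these than of any other panel. Library 1 held 83 members, 35 Hal panel cells, 73 Lox panel cells and 146 Coch-low fibroblasts. Library 2 held 68 members, 19 Hal panel cells, 71 Lox panel cells and 133 Coch-low fibroblasts. Members made up 6.24% of the kept cells of library 1 (exact binomial 95% interval 5.00 to 7.67%) and 10.6% of those of library 2 (8.29 to 13.2%).

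Members differed in depth from the other classes. Their median was 15181 UMIs in library 1 and 8934 in library 2. The medians were 18553 and 17825 UMIs in Hal panel cells, 21815 and 6477 in Lox panel cells, and 5696.5 and 5724 in Coch-low fibroblasts. A deeper cell shows more genes of every panel, so depth enters a rule that counts genes seen. No kept cell had fewer than 2000 UMIs, the depth to which cells were thinned for comparison. The median mitochondrial share in members was 2.53% and 2.72%, and the median haemoglobin share 0.578% and 0.188%.

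The class has no sharp edge. Of 740 cells with at least 5 Coch UMIs, 376 held at least 3 of the 5 panel genes. Of those 376, 124 held equally many genes of another panel and 101 held fewer than of another panel, which left the 151 members. All 5 panel genes were seen in 68 members, 4 in 42 and 3 in 41. The lead over the better of the other panels was 1 gene in 92 members, 2 genes in 43, 3 genes in 14 and 4 genes in 2. In library 1, 16 members held 4 genes of the Hal panel and 17 held 4 genes of the Lox panel.

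**Figure D1:**
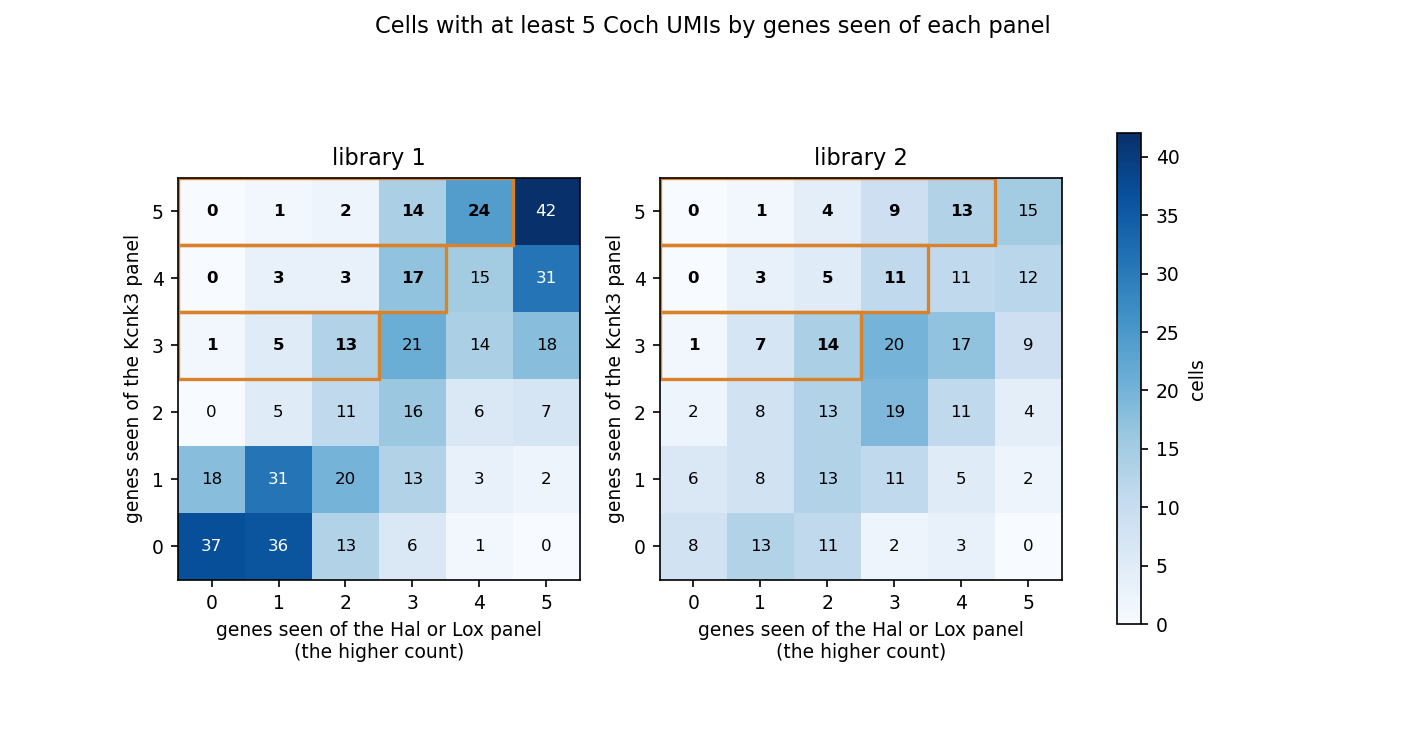
Cells with at least 5 Coch UMIs, counted by the number of Kcnk3 panel genes seen (vertical axis) and the higher number seen of the Hal or Lox panel (horizontal axis), in library 1 (left) and library 2 (right). The outlined boxes hold the 83 and 68 members. The fullest box of library 1, 42 cells with all 5 genes of the Kcnk3 panel and of another panel, lies just outside the outline.

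Sox11, 1 of the genes counted by the rule, is given here for cells near the limits as a description, since its level follows in part from the choice. The 19 members of library 1 with exactly 3 panel genes carried Sox11 at 194 CPM (UMIs of the gene per 1000000 UMIs summed over the cells), and the 22 such members of library 2 carried it at 250 CPM. The cells that met every other condition but held only 2 panel genes, 5 in library 1 and 10 in library 2, carried Sox11 at 82.8 and 72.5 CPM. The tied cells, 78 in library 1 and 46 in library 2, carried Sox11 at 305 and 202 CPM and had medians of 30658 and 13360.5 UMIs. Kcnk3 was higher in the tied cells, at 486 and 436 CPM, than in members, at 356 and 351 CPM. Exactly 5 Coch UMIs, the lowest number allowed, were found in 4 members, and 4 further cells missed the rule with 4 Coch UMIs.

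The panel genes and Coch chose the members, so their levels are given as a description and were not tested. Kcnk3 stood at 356 and 351 CPM in members of libraries 1 and 2. It stood at 174 and 156 CPM in Hal panel cells, 328 and 326 CPM in Lox panel cells, and 5.08 and 5.02 CPM in Coch-low fibroblasts. The gene thus marked all 3 Coch-positive classes, with Lox panel cells close to members. Nov was 164 and 175 CPM in members, 37.8 and 33.3 CPM in Hal panel cells, 12.7 and 5.10 CPM in Lox panel cells, and 16.9 and 11.3 CPM in Coch-low fibroblasts. Sox11 was 302 and 311 CPM in members, 218 and 183 CPM in Hal panel cells, 83.3 and 77.8 CPM in Lox panel cells, and 224 and 179 CPM in Coch-low fibroblasts. The rule counts both genes, so these differences follow in part from the choice.

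Epha3 was 290 and 331 CPM in members, 259 and 343 CPM in Hal panel cells, 177 and 192 CPM in Lox panel cells, and 89.0 and 51.4 CPM in Coch-low fibroblasts. Col23a1 was 88.5 and 124 CPM in members, 3.03 and 0 CPM in Hal panel cells, 45.1 and 61.2 CPM in Lox panel cells, and 76.3 and 61.5 CPM in Coch-low fibroblasts. Epha3 levels overlapped between members and Hal panel cells. Coch, required of all but the fibroblasts, was lowest in members among the Coch-positive classes, at 2679 and 3091 CPM. It reached 6382 and 5343 CPM in Hal panel cells and 10832 and 11162 CPM in Lox panel cells, against 129 and 124 CPM in Coch-low fibroblasts.

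**Figure D2:**
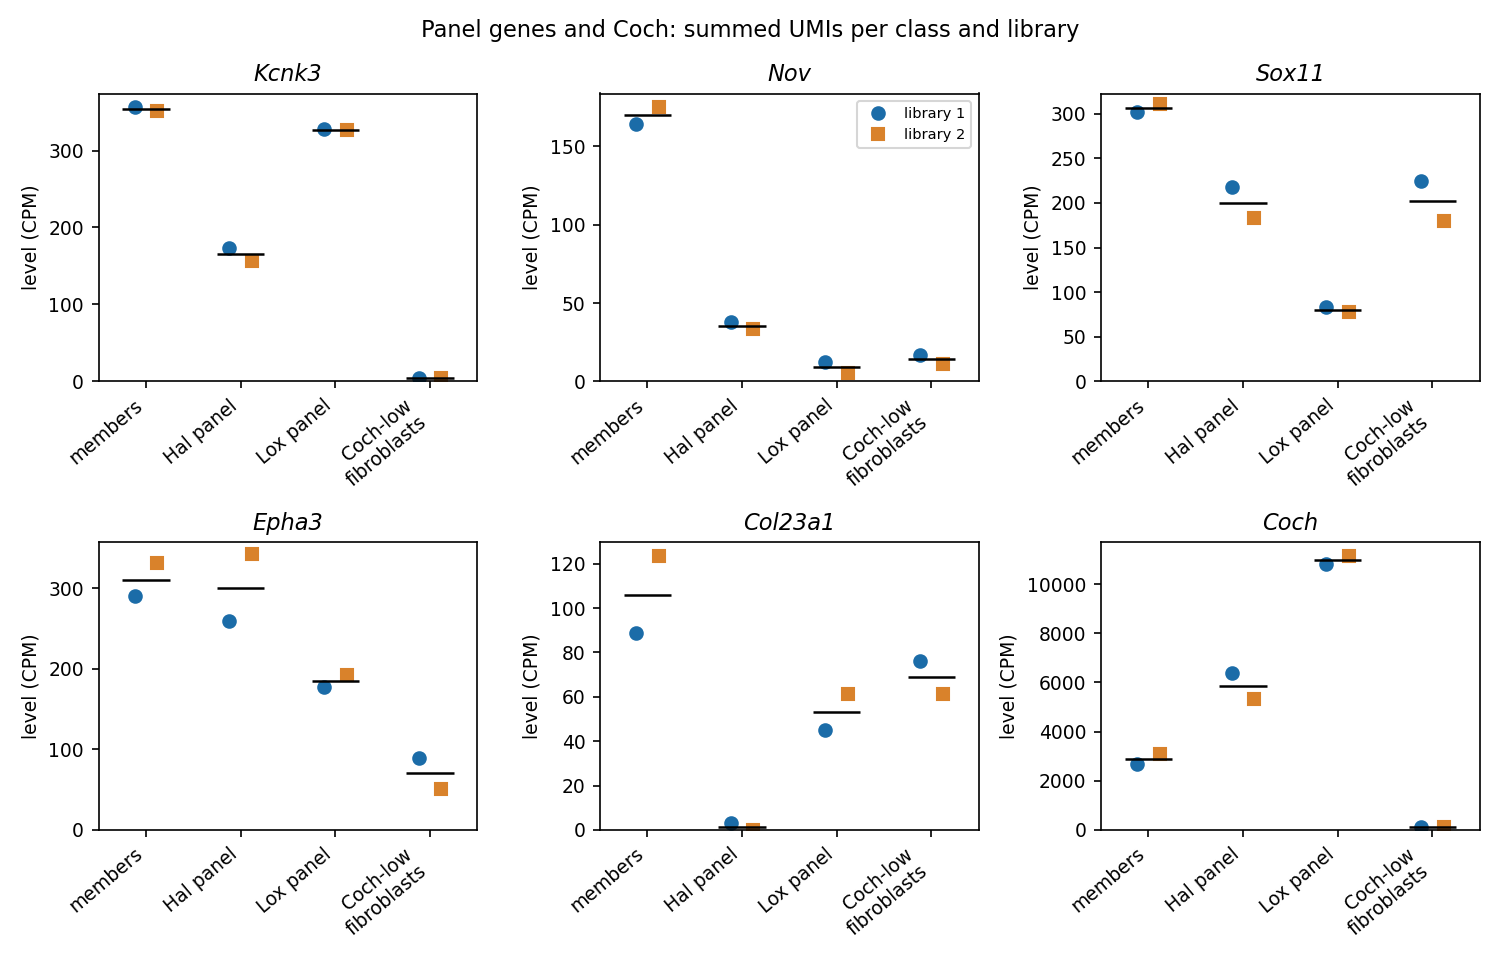
Levels in CPM of the 5 panel genes and Coch in members, Hal panel cells, Lox panel cells and Coch-low fibroblasts. Each point is the summed UMIs of 1 class in library 1 (circle) or library 2 (square), and the bar is the mean of the 2 libraries. Nov stands at 164 and 175 CPM in members and under 38 CPM elsewhere, while Kcnk3 is nearly as high in Lox panel cells.

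A panel gene helps to choose the cells in which it is then counted. Each gene was therefore also measured in cells chosen with the other 4 panel genes, for all Coch-positive classes alike. Chosen so, Nov was 119 and 131 CPM in members, 89.1 and 70.1 CPM in Hal panel cells, and 59.3 and 54.0 CPM in Lox panel cells. Sox11 was 355 and 253 CPM in members, 285 and 185 CPM in Hal panel cells, and 176 and 140 CPM in Lox panel cells. Kcnk3 fell to 193 CPM in members of library 1, below 275 CPM in Hal panel cells and 459 CPM in Lox panel cells, and was 377 CPM in members of library 2, against 239 and 395 CPM in those classes. Epha3 and Col23a1 also did not stand above both other classes in both libraries. Nov and Sox11 were thus the panel genes whose CPM stayed highest in members in both libraries when left out of the choice. The share of cells with a UMI of the gene did not always rank so. Sox11 was seen in 88.0% and 70.0% of members, against 90.0% and 77.8% of Hal panel cells and 72.1% and 58.6% of Lox panel cells. Nov was seen in 59.5% and 48.8% of members, against 55.8% and 52.0% of Hal panel cells and 37.5% and 24.7% of Lox panel cells. The panel was proposed from these same cells, so these values remain a description.

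Single members varied widely. Kcnk3 ranged over 0 to 68 UMIs per cell in library 1, with a median of 3, and over 0 to 35 in library 2, also with a median of 3. Sox11 had a median of 4 UMIs in library 1 and 2 in library 2. Most members carried Sox11 and Epha3: Sox11 was missing from 3 of 83 and 9 of 68 members, and Epha3 from 3 of 83 and 5 of 68. Nov was missing from 15 and 21 members, and Col23a1 from 27 and 25. The most frequent incomplete set was Kcnk3, Nov, Sox11 and Epha3 without Col23a1, in 20 members, followed by Kcnk3, Sox11 and Epha3 in 17.

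Droplets also hold free RNA, which was judged from red cell barcodes, those with at least 50% haemoglobin UMIs. There were 372 in library 1 and 36 in library 2, with medians of 10395.5 and 12833.5 UMIs. Each panel gene was seen in 0 to 5.56% of them, against 63.2 to 96.4% of members. The share in members follows in part from the rule, which asks for at least 3 of these genes. No red cell barcode held 3 panel genes and none was a member. Coch itself was seen in 88.4% and 75.0% of red cell barcodes, and 12.9% and 5.56% of them reached 5 Coch UMIs. A count of 5 Coch UMIs was thus reached by some red cell barcodes, while the panel genes were rare in them.

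The label of mesenchyme was checked against markers, along with those of other cochlear cell types. Of 7 mesenchymal markers, Pou3f4, Tbx18, Col1a2, Col3a1, Vim and Pdgfra were found in members of both libraries, and Col1a1 was at 2.36 CPM in library 1 and at 0 in library 2. The summed level of the 7 was 2082 and 1697 CPM in members, against 2585 and 2247 CPM in Coch-low fibroblasts. Col3a1 and Pdgfra also belong to the panel that chose the fibroblasts, so the fibroblast sum follows in part from the choice. Mesothelial markers (Msln, Upk3b, Wt1 and Lrrn4) were all at 0. Epithelial markers summed to 55.5 and 22.7 CPM in members, with Esrp1 at 0, and to 175 and 39.5 CPM in Lox panel cells. Endothelial markers summed to 66.7 and 35.0 CPM in members. The 5 pericyte and smooth muscle markers summed to 66.1 and 39.1 CPM in members. Kcnj8 made up most of that sum, at a mean of 48.3 CPM, while Acta2 and Myh11 were at 0. The same 5 summed to 53.0 and 46.6 CPM in Hal panel cells, 101 and 62.5 CPM in Lox panel cells, and 15.3 and 16.3 CPM in Coch-low fibroblasts. All 4 genes listed for basal cells of the stria vascularis (Cldn11, Tjp1, Nrp2 and Nr2f2) were found in members, summing to 1306 and 1644 CPM, against 2524 and 2342 CPM in Hal panel cells, 1054 and 1948 CPM in Lox panel cells, and 2722 and 3551 CPM in Coch-low fibroblasts. The 4 hair cell genes summed to 234 and 298 CPM in members and to between 217 and 318 CPM in the other classes. Myo6 made up most of that sum in members, at 220 and 295 CPM. Of the 4 chondrocyte genes, Matn1 was at 0 in every class, and the sum was 162 and 48.4 CPM in members, 36.3 and 39.9 CPM in Hal panel cells, 440 and 43.4 CPM in Lox panel cells, and 66.1 and 20.1 CPM in Coch-low fibroblasts. Red cell genes summed to 6022 and 10021 CPM in members, 20795 and 1750 CPM in Hal panel cells, and 12328 and 1882 CPM in Lox panel cells. Coch-low fibroblasts had 6078 and 1897 CPM, so these sums differed between libraries as well as classes. The median haemoglobin share in library 2 was 0.188% in members, 0.178% in Hal panel cells, 0.187% in Lox panel cells and 0.180% in Coch-low fibroblasts. The higher sum of members there was thus not a trait of the typical member. Of 5 genes listed for tympanic border cells, Emilin2, Notum, Axin2 and Rarres1 were present in members, and Prph was at 0 in library 1. The 5 summed to 5286 and 5212 CPM in members. Hal panel cells had 7788 and 5812 CPM, Lox panel cells 9145 and 6888 CPM, and Coch-low fibroblasts 663 and 699 CPM. Emilin2 made up most of the sum in members, at a mean of 4082 CPM. Rarres1 belongs to the Lox panel counted by the rule, and averaged 443 CPM in members and 2145 CPM in Lox panel cells. Its share of these differences follows in part from the choice. Lateral wall fibrocyte genes summed to 1403 and 1206 CPM in members and 2695 and 1976 CPM in Coch-low fibroblasts. Hal panel cells had 1262 and 1218 CPM of these and Lox panel cells 1656 and 1526 CPM. Connective tissue fibroblast genes, mostly of the fibroblast panel, summed to 2032 and 1414 CPM in members and 16424.5 and 18952 CPM in Coch-low fibroblasts.

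All genes outside the rule were then compared between members and each other class on UMIs summed per class and library, with edgeR's quasi-likelihood test and Benjamini-Hochberg adjustment. The panels had been proposed after these same cells were clustered, so a p-value here says how well a difference repeated between these libraries, whose spread may be technical. A gene called had an adjusted p under 0.05. The sums ranged from 318888 to 1682653 UMIs. The promoter sequences of Otor, Gas2l3 and Col4a4 are shown because these genes were called in the comparisons below, and Col4a4 also because its start lies beside that of another called gene. They are taken from RefSeq on GRCm38.p6 (the assembly behind mm10), 250 bases before and 50 after the annotated start, read on the gene's strand. In Otor and Gas2l3 the capitals mark TATAAA or CCAAT, searched on both strands, so that an opposite-strand CCAAT reads ATTGG. In Col4a4 they mark the 71 bases between its annotated start and that of its head-to-head neighbour Col4a3.
Otor: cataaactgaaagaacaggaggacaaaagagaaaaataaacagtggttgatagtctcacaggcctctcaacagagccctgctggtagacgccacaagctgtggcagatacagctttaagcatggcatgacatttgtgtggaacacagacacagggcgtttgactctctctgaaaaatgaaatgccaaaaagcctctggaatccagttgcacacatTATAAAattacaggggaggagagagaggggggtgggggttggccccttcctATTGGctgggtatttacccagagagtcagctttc
Gas2l3: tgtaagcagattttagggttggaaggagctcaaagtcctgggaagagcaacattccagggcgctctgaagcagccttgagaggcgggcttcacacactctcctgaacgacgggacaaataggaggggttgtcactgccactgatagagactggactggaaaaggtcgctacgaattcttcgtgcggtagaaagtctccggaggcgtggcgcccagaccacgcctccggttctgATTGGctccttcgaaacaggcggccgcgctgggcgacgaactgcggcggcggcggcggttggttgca
Col4a4: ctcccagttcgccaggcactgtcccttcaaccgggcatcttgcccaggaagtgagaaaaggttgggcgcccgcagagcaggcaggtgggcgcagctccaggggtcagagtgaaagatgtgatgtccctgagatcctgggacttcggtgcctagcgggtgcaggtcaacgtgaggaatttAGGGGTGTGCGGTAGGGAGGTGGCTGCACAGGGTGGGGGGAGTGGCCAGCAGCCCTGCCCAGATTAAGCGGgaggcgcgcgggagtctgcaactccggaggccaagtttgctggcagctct
These windows are chr2:143078143-143078442 (plus strand), chr10:89443918-89444217 (minus strand) and chr1:82586800-82587099 (minus strand). The Otor window held TATAAA on the gene's strand beginning 35 bases before the RefSeq start. It also held an opposite-strand CCAAT at base 17 after that start, and the Gas2l3 window held 1 beginning 17 bases before its own. The GENCODE annotation starts Otor at chr2:143078473, outside this window, so the Otor positions hold for the RefSeq start only. Of 32851 promoter windows of this length, 13.6% held TATAAA and 37.4% held CCAAT on either strand.

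The fewest genes were called against Hal panel cells, the class with the least material. Its sums held 700493 and 318888 UMIs, against 1562790 and 798398 UMIs in Lox panel cells and 1130480 and 805241 UMIs in Coch-low fibroblasts. The part of these amounts in the number of calls was not tested. Members carried more Ccnd2 (cyclin D2, a driver of G1 progression), more of the matrix genes Spon2, Mfap2, Sparcl1 and Col8a1, more Mt1 (a metallothionein) and more Kcnk2 (the leak potassium channel TREK-1). They carried less Aldh1a1 (a retinaldehyde dehydrogenase) and less Wnk4, Bhmt, Lmcd1 and Il34. Of 9076 genes tested, 20 (0.22%) were higher in members and 28 (0.309%) lower, 0.529% in all, and each had the same sign in both libraries. The median log2 fold change over all genes was 0.01.

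Ccnd2 was 732 and 838 CPM in members, against 283 and 283 CPM in Hal panel cells. The libraries did not overlap, and the log2 fold change was 1.46 ± 0.13 (SE; adjusted p = 1.1e-06). Spon2, a secreted spondin, was 187 and 159 CPM in members, against 78.7 and 46.6 CPM in Hal panel cells (log2 fold change 1.39 ± 0.19, adjusted p = 0.00031). The level of Ccnd2 was thus even between libraries, that of Spon2 less so. Mfap2, a microfibril protein, was 217 and 147 CPM in members, against 77.2 and 66.5 CPM in Hal panel cells. Kcnk2 was 259 and 147 CPM in members, against 72.6 and 93.2 CPM in Hal panel cells (log2 fold change 1.42 ± 0.26, adjusted p = 0.035). Sox4, a SOXC relative of Sox11, was 133 and 115 CPM in members, against 66.6 and 63.2 CPM in Hal panel cells (log2 fold change 0.98 ± 0.22, adjusted p = 0.045). Sox4 was the only one of 25 tested genes of the otic mesenchyme and SOX transcription factor list that was called here, and Sox11 was in the rule. The calls of both Kcnk2 and Sox4 were lost with DESeq2, without the replicate block, with at least 2 panel genes, with cells limited to 500 or more genes and up to 10% mitochondrial UMIs, with the gate on thinned cells, with a lead of at least 2 panel genes and on thinned cells.

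Aldh1a1 was 37.2 and 42.2 CPM in members, against 126 and 130 CPM in Hal panel cells (log2 fold change -1.70 ± 0.21, adjusted p = 6e-05). Wnk4, a kinase regulating ion transport, was 49.0 and 80.3 CPM in members, against 145 and 216 CPM in Hal panel cells (log2 fold change -1.51 ± 0.18). Bhmt, of methionine metabolism, was 34.2 and 73.1 CPM in members, against 119 and 173 CPM in Hal panel cells. For each of these genes both libraries of members lay below both of the other class. Among receptors and signals, Nrp2 (a semaphorin co-receptor) was lower by a log2 fold change of -1.18 ± 0.19 and Wif1 (a secreted Wnt inhibitor) by -1.08 ± 0.19. Car3, a carbonic anhydrase of fibrocytes, was 116 and 39.1 CPM in members, against 13.6 and 13.3 CPM in Hal panel cells (log2 fold change 2.73 ± 0.33, adjusted p = 6e-05), with library 1 well above library 2 within members. Unc5c, a netrin receptor, had 52 and 14 UMIs in members, against 1 and 2 UMIs in Hal panel cells, a ratio of CPM of 8.34 with an exact 95% interval of 2.73 to 41.5 for counting error alone.

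The lists held few calls against Hal panel cells. Of 26 tested matricellular and elastic fibre genes, Mfap2 and Sparcl1 were higher and Cyr61 lower, with a list median of 0.29. Of 15 tested chemokine and complement genes, Clu and Serping1 were lower. Of 30 tested immediate early and heat shock genes, only Hspb1 was called, lower in members. No gene was called among 9 tested Eph receptors and ephrins, 11 fibrillar collagens, 30 deafness genes or 52 nuclear genes of oxidative phosphorylation. Hal panel cells numbered 19 in library 2. Without the library as a replicate block, 1 gene was called higher and 1 lower, Ccnd2 and Aldh1a1 of those named above. On cells thinned to 2000 UMIs, 8 were higher and 5 lower. There, 2 of 8 named higher genes and 1 of 7 named lower genes with a value kept the call. Aldh1a1, Wnk4, Bhmt, Lmcd1 and Il34 were among those that lost it. Of the 8 named in each direction, DESeq2 kept 5 higher and 2 lower, and the gate on thinned cells 2 and 5. A lead of at least 2 panel genes kept 5 and 2, with Aldh1a1 among the calls lost.

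**Figure D3:**
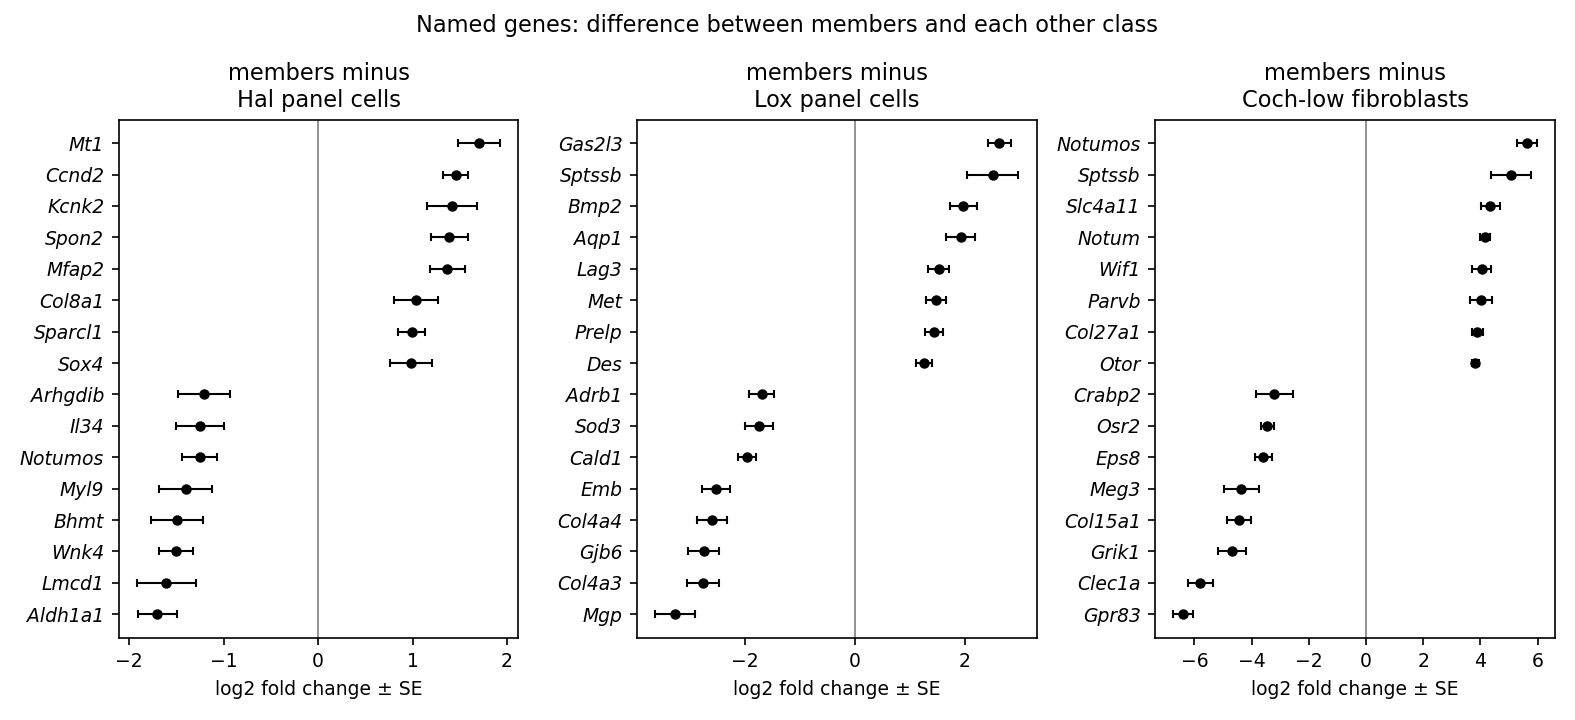
Log2 fold changes (members minus the other class, with SE) of the genes named by the rule, the 8 largest in each direction, against Hal panel cells (left), Lox panel cells (middle) and Coch-low fibroblasts (right). Points right of 0 were higher in members. The horizontal scales differ, from about 1 to 2 in size against Hal panel cells to -6.39 for Gpr83 against Coch-low fibroblasts, and there the fitted values of Sptssb and Clec1a rest on 3 UMIs in the lower class.

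More genes were called against Lox panel cells. Members carried more Gas2l3 (which links actin and microtubules), Bmp2 (a bone morphogenetic protein), Aqp1 (a water channel), Met (the receptor of hepatocyte growth factor), Prelp, Des and Lag3. They carried less of the basement membrane chains Col4a3 and Col4a4, the fibrillar chains Col11a1 and Col11a2, the fibril-associated chain Col9a1, the gap junction gene Gjb6 and the matrix calcification inhibitor Mgp. Of 9076 genes tested, 131 (1.44%) were higher and 218 (2.4%) lower, 3.85% in all, with the same sign in both libraries for 130 and 210 of them. The median over all genes was 0.00 on the log2 scale.

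Gas2l3, whose promoter is shown above, was 117 and 144 CPM in members, against 17.8 and 25.5 CPM in Lox panel cells (log2 fold change 2.63 ± 0.21, adjusted p = 6.7e-08). It was higher still in Hal panel cells, at 188 and 239 CPM. Bmp2 was 68.5 and 51.5 CPM in members, against 18.4 and 11.5 CPM in Lox panel cells (log2 fold change 1.97 ± 0.24). Bmp2 was 93.8 and 66.5 CPM in Hal panel cells. Met, Prelp and Des averaged 110, 129 and 178 CPM in Hal panel cells, close to 119, 119 and 172 CPM in members. Aqp1 and Lag3 averaged 50.8 and 61.9 CPM in Hal panel cells, below 78.7 and 107 CPM in members. Aqp1 was 76.1 and 81.4 CPM in members, against 27.3 and 10.2 CPM in Lox panel cells (log2 fold change 1.92 ± 0.26). Met, a deafness gene in humans, was 98.6 and 140 CPM in members, against 36.2 and 49.7 CPM in Lox panel cells (log2 fold change 1.48 ± 0.19, adjusted p = 2.9e-05). The transcription factor Tbx18, needed for otic fibrocyte development in mice, was 341 and 352 CPM in members, against 184 and 162 CPM in Lox panel cells (log2 fold change 1.00 ± 0.14). Pou3f4 was 325 and 287 CPM in members, against 234 and 218 CPM in Lox panel cells, and was not called (adjusted p = 0.051).

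The collagen IV chains Col4a3 and Col4a4, which assemble together, were both lower in members than in Lox panel cells. They were low in the other classes too. Col4a3 averaged 8.48 CPM in members, 7.11 CPM in Hal panel cells and 3.80 CPM in Coch-low fibroblasts. Col4a4 averaged 10.6, 8.77 and 5.05 CPM in the same order. Col4a3 was 11.8 and 5.15 CPM in members, against 65.5 and 58.6 CPM in Lox panel cells (log2 fold change -2.76 ± 0.29). Col4a4 was 13.0 and 8.24 CPM in members, against 64.2 and 75.2 CPM in Lox panel cells (log2 fold change -2.60 ± 0.27, adjusted p = 3.4e-06 for each). They start within the same window printed above, on opposite strands. Of 12 tested basement membrane, beaded and transmembrane collagens, 4 were lower and 0 higher, with a median of -0.58. The other 2 were Col8a1, at 109 and 63.8 CPM in members against 322 and 144 CPM in Lox panel cells, and Col18a1, with 3 and 0 UMIs in members against 23 and 2 UMIs in Lox panel cells. Of 11 tested fibrillar and fibril-associated collagens, 3 were lower and 0 higher, with a median of -0.59. Col11a2 was 11.2 and 7.21 CPM in members, against 67.4 and 37.0 CPM in Lox panel cells (log2 fold change -2.51 ± 0.29). Cartilage markers moved with these collagens in library 1: Col2a1 was 137 and 38.1 CPM in members, against 364 and 19.1 CPM in Lox panel cells, and the chondrocyte sums are given above. Their part in the lower collagens and in Mgp was not tested.

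Of 20 tested genes of fibrocyte ion transport and gap junctions, 5 were lower in members and 0 higher. Gjb6, encoding connexin 30, was 30.7 and 9.27 CPM in members, against 172 and 99.5 CPM in Lox panel cells (log2 fold change -2.75 ± 0.28, adjusted p = 3.6e-05). Gjb6 averaged 7.72 CPM in Hal panel cells and 40.8 CPM in Coch-low fibroblasts. Its members' UMIs sat in few cells, 5 of which held 75.0% in library 1. Its call was lost with at least 10 Coch UMIs, with at least 2 panel genes, with the gate on thinned cells, without the replicate block and when cells with an Epcam UMI were left out. Lox panel cells of library 1 had the higher epithelial marker sum given above, whose part in the result was not tested. Atp1b3, a sodium pump subunit, was 186 and 168 CPM in members, against 269 and 266 CPM in Lox panel cells (log2 fold change -0.59 ± 0.13). Slc12a2, a sodium, potassium and chloride cotransporter, was 26.0 and 27.8 CPM in members, against 48.9 and 53.6 CPM in Lox panel cells (log2 fold change -0.92 ± 0.23, adjusted p = 0.023).

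Of 30 tested deafness genes of matrix, ion transport and mesenchyme, 3 were higher (Met, Tbx18 and Tbx1) and 9 lower, with a median of -0.56. The lower ones included the collagens and Gjb6. They also included Gata3 and P2rx2, which rested on library 1: Gata3 had 7 and 1 UMIs in members against 273 and 1 UMIs in Lox panel cells, and P2rx2 had 9 and 1 UMIs against 117 and 0 UMIs. Mgp was 45.4 and 5.15 CPM in members, against 375 and 94.4 CPM in Lox panel cells (log2 fold change -3.27 ± 0.36), and 5 cells held 90.9% of the members' Mgp UMIs in library 1. Otor (otoraplin, a secreted protein of the inner ear) was 2816 and 2319 CPM in members, against 4781 and 3336 CPM in Lox panel cells (log2 fold change -0.64 ± 0.10). The member values of Otor overlapped none of the values of Lox panel cells.

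Among signals, 3 of 12 tested Wnt genes were higher and 1 lower. Axin2, a target of Wnt signalling, was 124 and 156 CPM in members, against 67.4 and 93.1 CPM in Lox panel cells (log2 fold change 0.82 ± 0.16). Dkk2, a Wnt inhibitor, rested on library 1, with 71 and 1 UMIs in members against 2 and 1 UMIs in Lox panel cells, and its log2 fold change was -0.11 without that library. Sfrp2 was higher and Wif1 lower. Of 14 tested retinoid genes, Aldh1a2 (a retinoic acid synthesis enzyme) and Rarres2 were higher and Aldh1a1 lower. Robo2 and Sema6a were the 2 of 23 tested guidance genes that were called, both higher. Of 9 tested Eph receptors and ephrins, Epha5 was called, at 194 and 162 CPM in members against 114 and 79.1 CPM in Lox panel cells.

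Of 30 tested immediate early and heat shock genes, 7 were higher in members than in Lox panel cells and 2 lower. Egr1, an immediate early transcription factor, was 1849 and 2456 CPM in members, against 1243 and 1480 CPM in Lox panel cells (log2 fold change 0.65 ± 0.10, adjusted p = 0.00025). Fos, Junb, Jund, Ier2, Egr2 and Klf6 were the other higher genes, with log2 fold changes between 0.37 and 0.82. The list median was 0.19. Without the replicate block 19 genes in all were called higher and 28 lower, among them 6 and 4 of the 8 named in each direction. On cells thinned to 2000 UMIs the counts were 19 and 28 as well.

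**Figure D4:**
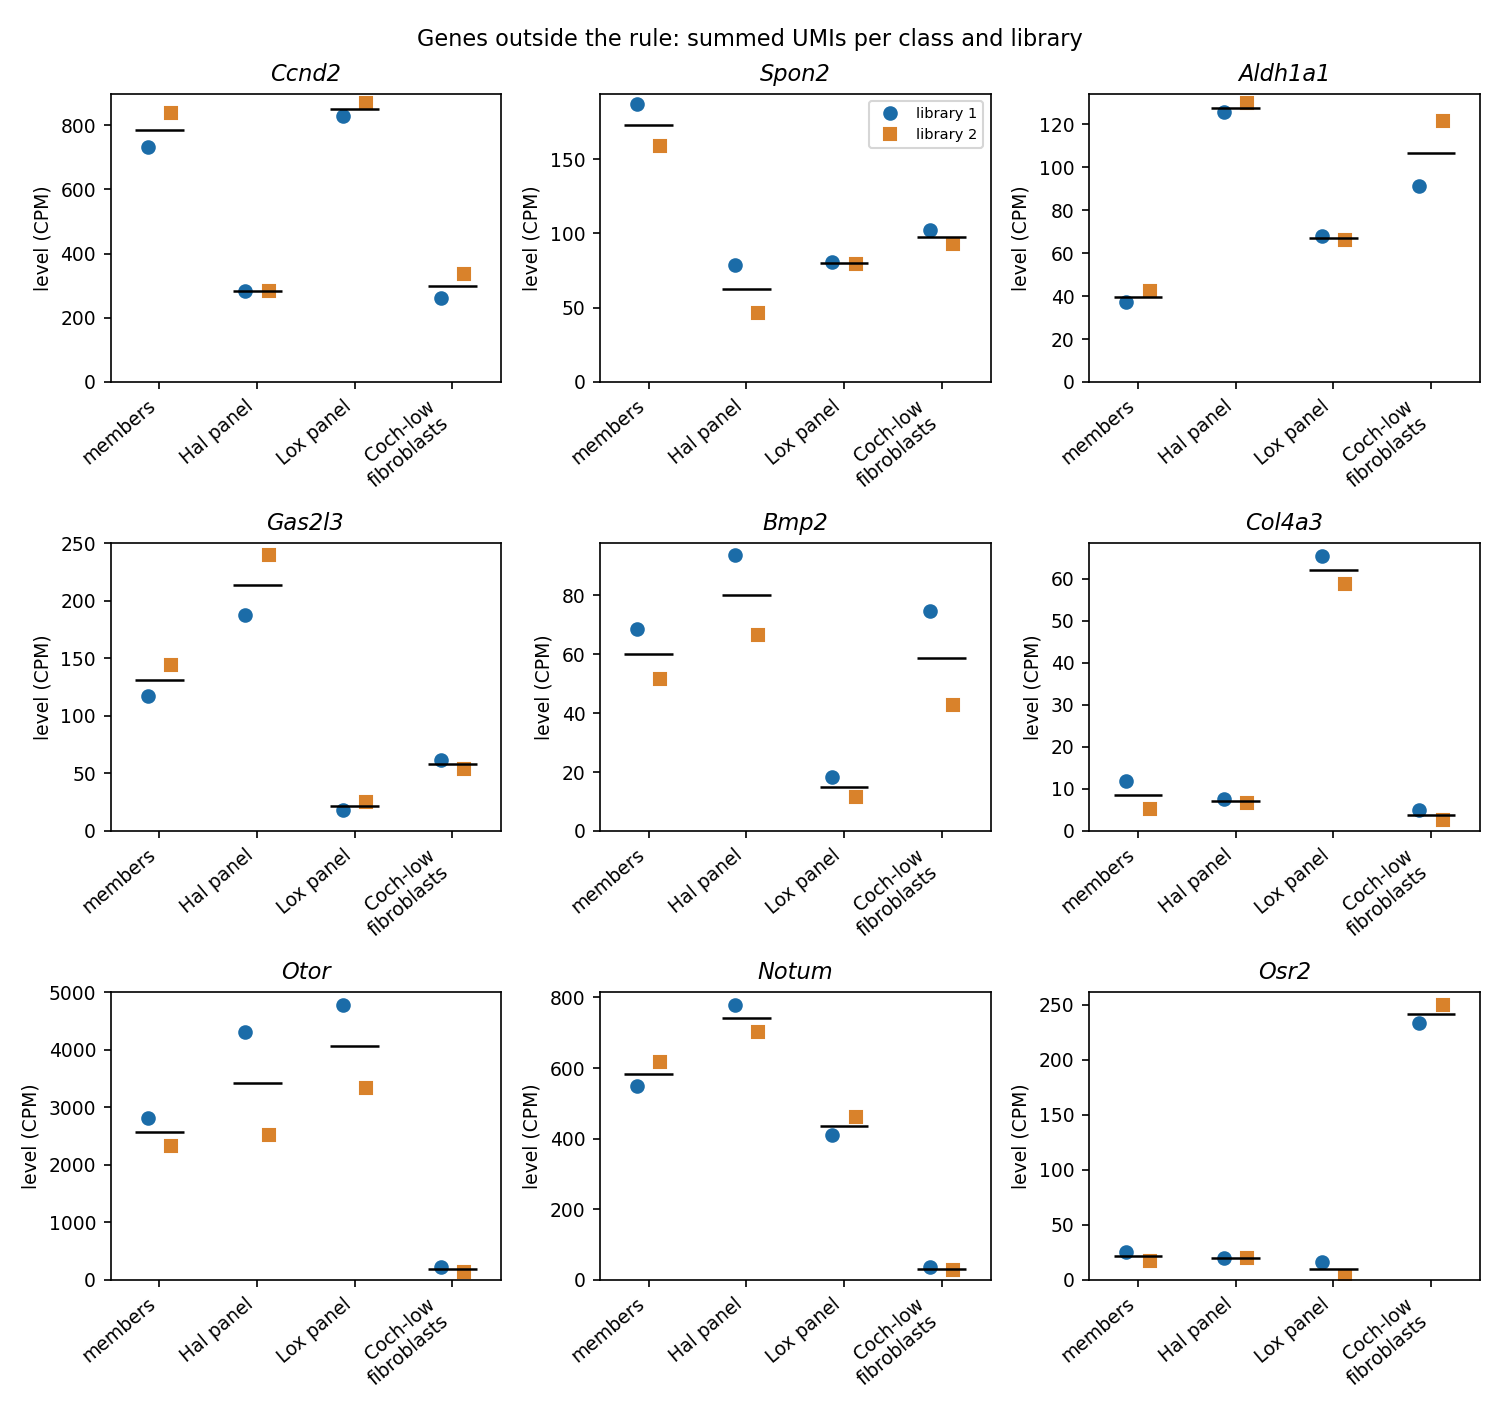
Levels in CPM of 9 genes outside the rule in members, Hal panel cells, Lox panel cells and Coch-low fibroblasts, as summed UMIs in library 1 (circle) and library 2 (square) with their mean (bar). The top row shows Ccnd2, Spon2 and Aldh1a1, which differed from Hal panel cells, the middle row Gas2l3, Bmp2 and Col4a3, which differed from Lox panel cells, and the bottom row Otor, Notum and Osr2, which differed from Coch-low fibroblasts.

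Members and Coch-low fibroblasts were far apart. Members carried high Otor, Emilin2, Col27a1, Slc4a11 and the Wnt inhibitors Notum and Wif1. They nearly lacked Gpr83, Clec1a, Grik1, Col15a1 and Eps8, and carried little Osr2, Aldh1a2 and Crabp2. The other Coch-positive classes carried the higher genes named here too. Otor averaged 2568 CPM in members, 3418 CPM in Hal panel cells and 4058 CPM in Lox panel cells. In the same order, Emilin2 averaged 4082, 5032 and 5354 CPM, Slc4a11 108, 123 and 107 CPM, and Col27a1 244, 213 and 186 CPM. Notum averaged 583, 741 and 437 CPM, and Wif1 62.4, 133 and 124 CPM. Of 9071 genes tested, 833 (9.18%) were higher and 729 (8.04%) lower, 17.2% in all, each with the same sign in both libraries, and the median over all genes was 0.01. The fibroblasts were chosen for low Coch and the members for high Coch, so a wide difference between these classes was built into the choice. The rule of the members did not count the fibroblast panel. In library 1, 19 members held 4 genes of that panel and 5 held all 5. In library 2, 4 members held 4 of them and 3 held all 5.

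Otor was 2816 and 2319 CPM in members, against 230 and 143 CPM in Coch-low fibroblasts (log2 fold change 3.81 ± 0.12, adjusted p = 2e-16). Every member but 1 held an Otor UMI, with medians of 45 and 20 UMIs per cell. Emilin2, an elastin interface protein of the cochlear basilar membrane in mice, was 4215 and 3949 CPM in members, against 529 and 579 CPM in Coch-low fibroblasts (log2 fold change 2.88 ± 0.15). Red cell barcodes also held Otor, in 55.1% and 38.9% of cases, and Emilin2, in 73.7% and 63.9%, so the levels of the fibroblasts cannot be read as expression by them. Col27a1, a fibrillar collagen, was 281 and 207 CPM in members, against 16.9 and 16.3 CPM in Coch-low fibroblasts (log2 fold change 3.90 ± 0.21). Slc4a11, a transporter whose loss causes corneal dystrophy with hearing loss, was 93.3 and 124 CPM in members, against 6.78 and 2.51 CPM in Coch-low fibroblasts. The classes did not overlap in any of these genes.

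Notum, an enzyme that inactivates Wnt proteins, was 549 and 617 CPM in members, against 35.6 and 27.6 CPM in Coch-low fibroblasts (log2 fold change 4.17 ± 0.17, adjusted p = 2.5e-14). Notumos, annotated on the opposite strand at chr11:120659157-120661815 and overlapping Notum at chr11:120653788-120661175, was 179 and 242 CPM in members, against 5.93 and 1.25 CPM in Coch-low fibroblasts. The sources used here do not state whether reads were counted by strand, so the reads of these genes cannot be told apart with certainty. Wif1 was 53.7 and 71.1 CPM in members, against 3.39 and 3.76 CPM in Coch-low fibroblasts (log2 fold change 4.05 ± 0.34). Of 12 tested Wnt genes, Notum, Wif1, Wnt5b and Axin2 were higher and Wnt6 lower, with a median of 0.29. Sptssb had 86 and 60 UMIs in members, against 0 and 3 UMIs in Coch-low fibroblasts, a ratio of CPM of 35.0 (exact 95% interval 11.8 to 172, counting error alone).

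Of 25 tested otic mesenchyme and SOX transcription factors, 10 were higher in members and 6 lower, the list holding 51 genes. Foxf2 was 163 and 149 CPM in members, against 78.8 and 46.4 CPM in Coch-low fibroblasts (log2 fold change 1.29 ± 0.17). Sox4, Sox9, Twist1, Foxc1, Tshz1, Tshz2, Zic2, Eya1 and Runx1 were also higher. Osr2 was 25.4 and 17.5 CPM in members, against 233 and 250 CPM in Coch-low fibroblasts (log2 fold change -3.44 ± 0.23, adjusted p = 3.2e-10), and its relative Osr1 was lower by a log2 fold change of -1.64 ± 0.17. Six2, Meis2, Prrx1 and Tbx18 were lower too, Tbx18 by -0.38 ± 0.13. Pou3f4 was 325 and 287 CPM in members, against 369 and 310 CPM in Coch-low fibroblasts, with a log2 fold change of -0.15 that was not called.

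Of 23 tested semaphorins, netrins, slits and their receptors, 7 were higher, 1 (Rgmb) lower and 15 not called, with a list median of 0.29. Nrp2 was 70.2 and 82.4 CPM in members, against 8.47 and 7.53 CPM in Coch-low fibroblasts (log2 fold change 3.21 ± 0.30). Slit3 was at 10 and 5 UMIs in members and at 0 in both libraries of Coch-low fibroblasts, at least 3.60-fold higher with the fibroblasts set at 3 UMIs over the group. Among the Eph receptors, relatives of Epha3, Epha5 was 194 and 162 CPM in members, against 62.7 and 27.6 CPM in Coch-low fibroblasts (log2 fold change 1.95 ± 0.19). Epha4 was higher by 1.00 ± 0.26 and Epha7 lower by -1.17 ± 0.19. The ATP-sensitive potassium channel subunits Kcnj8 and Abcc9 were the 2 of 4 tested potassium channel genes that were called, both higher.

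Of 12 tested basement membrane, beaded and transmembrane collagens, 6 were lower (Col15a1, Col18a1, Col26a1, Col4a5, Col6a2 and Col6a3) and 1 higher (Col25a1), with a median of -1.10. Col15a1 was 3.54 and 1.03 CPM in members, against 53.4 and 69.0 CPM in Coch-low fibroblasts. Of 10 tested fibrillar and fibril-associated collagens, Col27a1, Col9a1 and Col11a1 were higher and none was lower. Of 26 tested matricellular and elastic fibre genes, 4 were higher and 7 lower, Wisp1 higher by 3.39 ± 0.35 and Fbln2, Mfap5, Tnxb and Fbn1 lower by -2.92 to -1.84 on the log2 scale. Of 8 tested IGF genes, Igf1 and Igf1r were higher, while Igf2, Igfbp2, Igfbp4 and Igfbp6 were lower.

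Of 15 tested growth factor and receptor genes, 4 were higher and 4 lower. Fgfr2, a fibroblast growth factor receptor, was 143 and 189 CPM in members, against 18.6 and 21.3 CPM in Coch-low fibroblasts (log2 fold change 3.03 ± 0.19). Ntrk2, the receptor of brain-derived neurotrophic factor, was 54.3 and 54.6 CPM in members, against 205 and 253 CPM in Coch-low fibroblasts (log2 fold change -2.05 ± 0.17). Of 14 tested retinoid genes, 3 were higher and 4 lower. Aldh1a2 was 47.8 and 38.1 CPM in members, against 202 and 242 CPM in Coch-low fibroblasts, and members thus lay between Lox panel cells and Coch-low fibroblasts for this gene (16.5 and 17.8 CPM in Lox panel cells). Clec1a had 2 and 1 UMIs in members, against 71 and 67 UMIs in Coch-low fibroblasts, which were 63.9-fold higher in CPM (exact 95% interval 21.4 to 314, counting error alone).

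Immediate early genes were higher in members here too, 15 of 30 tested, with 2 heat shock genes (Hspa1a and Hspe1) lower and a list median of 0.57. Atf3 was 120 and 541 CPM in members, against 61.0 and 113 CPM in Coch-low fibroblasts, and the values of members lay far apart without overlapping those of the fibroblasts. Junb was 6388 and 7697 CPM in members, against 3842 and 4264 CPM in Coch-low fibroblasts (log2 fold change 0.79 ± 0.08, adjusted p = 3.2e-07). Of 52 tested nuclear genes of oxidative phosphorylation, 9 were lower in members and 0 higher, with a median of -0.25. The largest of these, Sdhb, was lower by -0.70 ± 0.16. Counts fell on cells thinned to 2000 UMIs, to 156 higher and 131 lower, and without the replicate block 419 were higher and 350 lower.

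**Figure D5:**
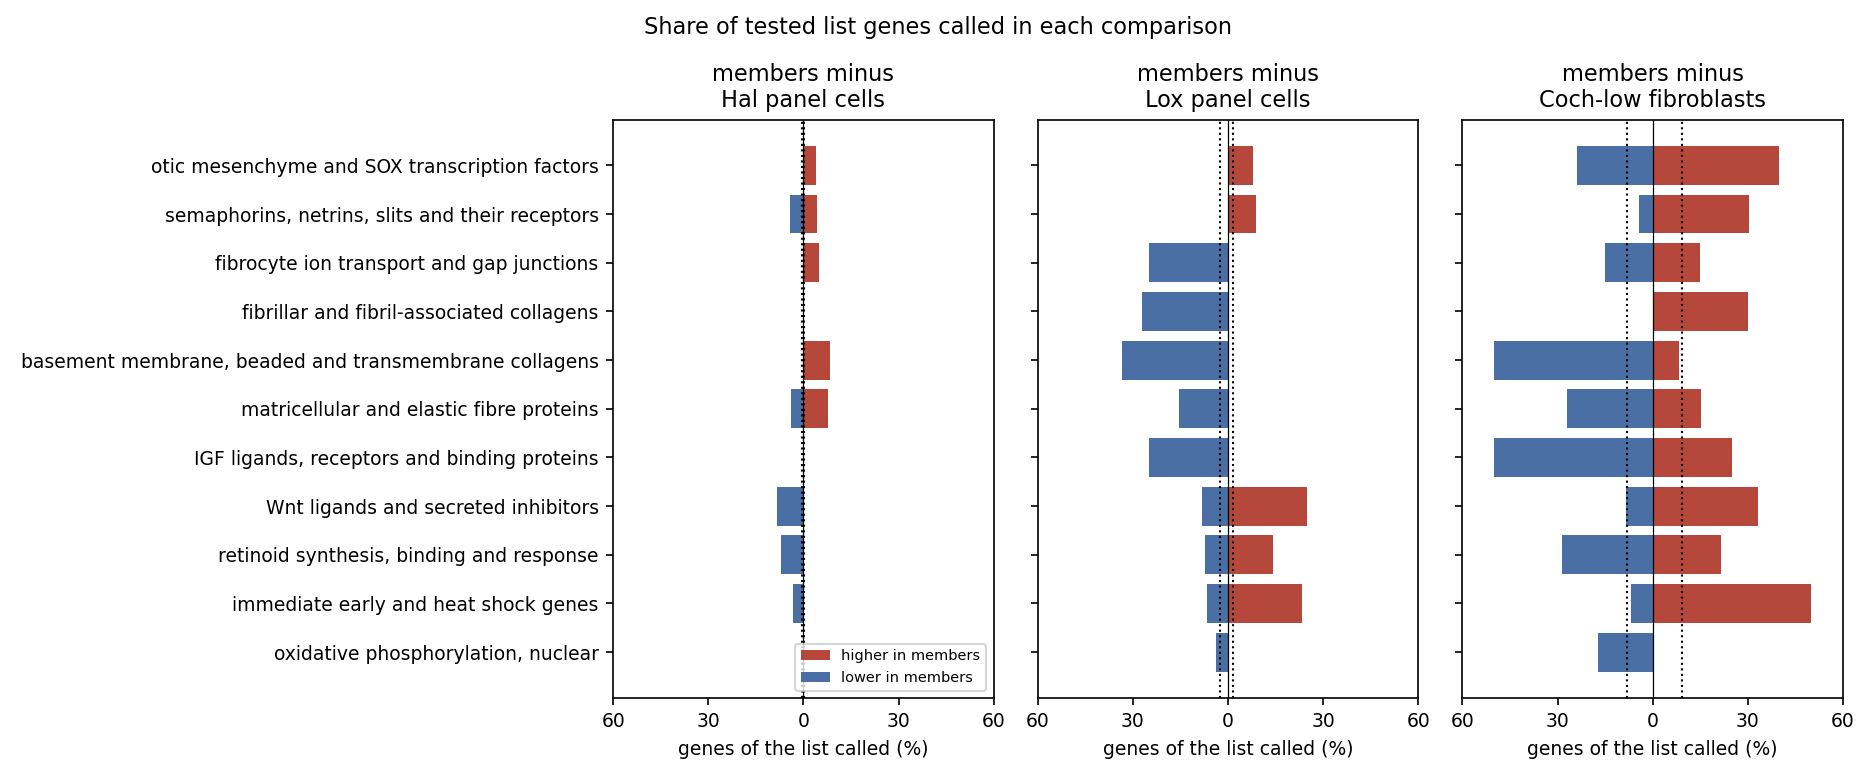
Share of the tested genes of 11 lists (in %) called higher (red, right of 0) or lower (blue, left of 0) in members than in Hal panel cells, Lox panel cells and Coch-low fibroblasts. Dotted lines give the share over all genes tested, 0.22% and 0.309%, 1.44% and 2.4%, and 9.18% and 8.04%. Immediate early genes reach 15 of 30 against Coch-low fibroblasts and basement membrane collagens 6 of 12 lower.

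Ccnd2 was also compared with the cell cycle as a whole. It was 732 and 838 CPM in members, 283 and 283 CPM in Hal panel cells, 830 and 868 CPM in Lox panel cells, and 263 and 336 CPM in Coch-low fibroblasts. Against Coch-low fibroblasts its log2 fold change was 1.40 ± 0.13 (adjusted p = 2.2e-08), and Cdkn1a, an inhibitor of cell cycle progression, was higher as well, at 181 and 221 CPM in members against 15.3 and 16.3 CPM in Coch-low fibroblasts (log2 fold change 3.68 ± 0.29). The proliferation gene Mki67 was at 2.95 and 0 CPM in members, and Top2a at 1.77 and 0 CPM. At least 5 of 26 G2/M genes were seen in 1 member of library 1 and 0 of library 2. Any G2/M gene was seen in 75.9% and 35.3% of members, and in 16.9% and 4.41% after thinning to 2000 UMIs, against 11.4% and 0% of thinned Hal panel cells, 21.9% and 12.7% of thinned Lox panel cells, and 15.1% and 4.51% of thinned Coch-low fibroblasts. Cenpa, a centromere protein, was the 1 G2/M gene with enough UMIs to be tested. It was higher in members than in Coch-low fibroblasts, at 27.1 and 20.6 CPM against 10.2 and 7.53 CPM (log2 fold change 1.42 ± 0.37, adjusted p = 0.0088), and was not called against the other classes. Of 7 tested S-phase genes, 0 were called against each of the 3 classes in edgeR's test.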

How the data were processed

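Droplet single-cell RNA was counted in 2 libraries of mouse cochlea. The deposited values are whole-number UMI counts per gene and barcode (27998 genes), which the authors obtained from Cell Ranger 2.1.0 and mm10, per the submitters' processing notes. Barcodes had been selected before deposit. A cell was kept if it held 300 or more genes and no more than 20% mitochondrial UMIs. Scrublet at 6% marked 2 and 4 cells, 0 of them members, and none was removed in the main result. No correction was made for free RNA.

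Raw counts were summed per class and library (8 sums) and fitted once in edgeR 4.0.16 (limma 3.58.1, R 4.3.3; scanpy 1.11.5, Python 3.11.15) with TMM factors of 0.955 to 1.06 and the library as replicate block. Low genes were dropped with filterByExpr (minimum count 10), leaving 9092. Quasi-likelihood fitting was robust, with 3 residual and 20.0 prior degrees of freedom and a common dispersion of 0.0118. Genes of the rule (Coch and the panels) were not tested, and members were not tested against all other cells. Each SE came from its F statistic and log2 fold change. Levels in CPM of the 4 classes are on filtered sums scaled by their TMM factors, and those of cells near the limits or chosen with 4 panel genes on their raw sums. The classes of a library come from the same cell suspension, and their deviations correlated between libraries at 0.212 to 0.400 over all pairs of classes, so the block pairs them. The fit was tested on simulated data.

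Genes named were the 8 largest changes each way among those called, with the same sign in both libraries and at least 50 CPM in the higher class in both libraries, plus listed marker and family genes and the largest calls of each list. The members, the lists (22 lists, 676 genes, 671 of them in the files) and the tests were chosen with earlier results of these data known. The alternatives tried were DESeq2 1.42.0, other scaling, filters, gates and thinning to 2000 UMIs. Values of a few genes within the list counts are not reported here. Intervals are exact 95% and cover counting error only.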

Additional observations from a re-analysis of the deposited data

How the results depend on the processing

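Counts of called genes moved by more than 1.5 times under several settings, and the cause was not tested except where a setting itself removes cells, depth or genes. Against Hal panel cells (20 higher, 28 lower), thinning to 2000 UMIs gave 8 and 5, no filter on low counts 66 and 64, no replicate block 1 and 1, DESeq2 6 and 6, and at least 4 panel genes 34 and 69. The gate on thinned cells gave 9 higher, while at least 10 Coch UMIs gave 56 lower, a panel margin of at least 2 genes 16 lower and leaving out cells with an Epcam UMI 52 lower. Against Lox panel cells (131 higher, 218 lower), thinning gave 19 and 28, the gate on thinned cells 46 and 109, the panel margin 45 and 96, no filter 220 and 399, no replicate block 19 and 28, and DESeq2 24 and 38. Against Coch-low fibroblasts (833 higher, 729 lower), thinning gave 156 and 131, at least 1 Coch UMI 463 and 361, the panel margin 260 and 218, no replicate block 419 and 350, and DESeq2 272 and 244. The member share of 6.24% in library 1 and 10.6% in library 2 became 4.81% and 7.14% with at least 4 panel genes, 8.11% and 13.7% with at least 1 Coch UMI, and 2.18% and 4.66% with the panel margin.

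Chosen by the other 4 panel genes, mean levels in members were 285 CPM for Kcnk3, 125 CPM for Nov, 279 CPM for Epha3 and 76.4 CPM for Col23a1. After thinning, S-phase genes were seen in 48.2% and 39.7% of members and G2/M genes in 16.9% and 4.41%. Of 220 called gene results, 104 lost the call with DESeq2, 108 without the replicate block and 1 with RLE scaling. Where fewer had a value, 82 of 157 lost it with thinning, 91 of 203 with the panel margin, 66 of 215 with the gate on thinned cells and 59 of 212 with at least 1 Coch UMI. Few turned their direction. Dkk2 against Lox panel cells had log2 fold changes of -0.76 with at least 2 panel genes and -0.10 with the gate on thinned cells, and -0.11 to 3.74 without 1 library. P2rx2 in the same comparison had -3.38 to 0.60 without 1 library. Against Coch-low fibroblasts the gate on thinned cells gave -0.48 for Col11a1, and the panel margin gave -0.051 for Axin2. The panel margin, the removal of cells with an Epcam UMI and the removal of haemoglobin genes were chosen after seeing the data. Without 1 library the counts cannot be had, since no residual degrees of freedom remain for each class.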
